A study of Homo sapiens with 12 samples.

Results

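The genes described here are the GADD45 family (GADD45A, GADD45B and GADD45G) and the antiproliferative BTG/TOB family (BTG1, BTG2, BTG3, TOB1 and TOB2). They were chosen by name, and every probe set that the platform annotation pairs with 1 of these genes alone was used. Of the 8 genes, 7 had such a probe set, giving 18 probe sets among the 54613 non-control probe sets of the array. BTG2 was not analysed here. Of the 18 probe sets, 15 were bright enough to be tested and cover 6 genes, while 3 lay under the filter on low values, among them the only one for GADD45G.

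RNA came from U2OS, a human osteosarcoma line that makes its own wild-type p53, and was measured on Affymetrix U133 Plus 2.0 arrays, where a probe set is a group of short probes read as 1 signal. Cells received doxorubicin at 0.6 µg/ml, with untreated cells as the control, or nutlin-3 at 10 µM, with cells in 0.1% DMSO as the control. All treatments lasted 24 hours, and each of the 4 groups had 3 arrays. The labels do not say whether the 3 came from separate cultures. Each p-value rests on the spread within groups, pooled over the 4 groups and drawn toward that of other probe sets. That spread may be technical.

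Doxorubicin traps topoisomerase II on DNA and leaves breaks, whereas nutlin-3 occupies the pocket of MDM2 that holds p53 and so stabilises p53 without breaking DNA. GADD45 proteins are small acidic proteins that bind stress kinases, PCNA and the CDK1 kinase, and GADD45A is a classical p53 target. BTG and TOB proteins slow the cell cycle and recruit the CCR4-NOT deadenylase, which shortens the poly(A) tails of mRNAs.

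The promoters of BTG1, GADD45B and BTG3 are shown because their lead (brightest) probe sets all rose with doxorubicin against untreated cells. These genes differed, however, in their nutlin-3 changes or between their own probe sets. The windows run from 250 bases before to 50 bases after the annotated start, 5′ to 3′ on the gene's strand, from RefSeq on GRCh38.p14. BTG1 is at chr12:92145797-92146096 (minus strand), GADD45B at chr19:2475877-2476176 (plus strand) and BTG3 at chr21:17612852-17613151 (minus strand). Capitals mark matches, on either strand, to the TATA box (TATAAA), the CCAAT box (CCAAT), the core of the cAMP response element (TGACGT) and the E-box (CACGTG).
BTG1: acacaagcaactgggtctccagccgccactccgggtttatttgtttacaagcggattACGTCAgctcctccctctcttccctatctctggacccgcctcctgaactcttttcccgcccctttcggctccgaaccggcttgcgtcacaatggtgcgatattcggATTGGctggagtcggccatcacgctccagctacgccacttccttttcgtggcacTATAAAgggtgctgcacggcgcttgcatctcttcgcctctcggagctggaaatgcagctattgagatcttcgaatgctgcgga
GADD45B: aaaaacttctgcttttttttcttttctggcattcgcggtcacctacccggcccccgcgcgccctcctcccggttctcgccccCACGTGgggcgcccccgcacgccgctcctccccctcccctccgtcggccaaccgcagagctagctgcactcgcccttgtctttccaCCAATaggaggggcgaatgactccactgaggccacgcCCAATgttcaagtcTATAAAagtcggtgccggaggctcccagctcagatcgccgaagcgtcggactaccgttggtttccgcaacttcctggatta
BTG3: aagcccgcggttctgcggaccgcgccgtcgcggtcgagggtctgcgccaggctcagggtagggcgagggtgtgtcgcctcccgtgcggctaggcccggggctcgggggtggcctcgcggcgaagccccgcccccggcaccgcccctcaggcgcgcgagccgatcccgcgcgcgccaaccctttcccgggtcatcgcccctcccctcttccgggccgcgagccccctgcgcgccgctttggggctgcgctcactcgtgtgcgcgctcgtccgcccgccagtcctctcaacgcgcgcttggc
The BTG1 window held 1 TATA box, 1 CCAAT box and 1 cAMP response element core. The GADD45B window held 1 TATA box, 2 CCAAT boxes and 1 E-box. The BTG3 window held none of these 4 motifs and 3 GC boxes (GGGCGG, not capitalised). The BTG1 window held 1 GC box and the GADD45B window 0. Of 35116 RefSeq promoter windows of this length, 11.5% held the TATA box, 34.6% the CCAAT box, 7.98% the cAMP response element core, 7.26% the E-box and 45.0% the GC box. The p53 decamer, searched by its consensus, was in none of the windows found for 7 of the 8 genes and in 6.63% of all windows. No window was found for GADD45A, so its promoter was not searched. These matches describe the letters in the windows only.

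Signals are the authors' linear MAS5 values. Changes are differences in log2(signal + 16) with limma's standard error (SE), and a probe set was called at a Benjamini-Hochberg adjusted p under 0.05 over all 32768 probe sets tested. In a bulk sample, fewer cells with a transcript and less of that transcript per cell cannot be told apart. Within a group, the correlation between arrays across probe sets was 0.972 to 0.987. MDM2, the p53 target that nutlin-3 is made to engage, had a mean of 9408 ± 234 with doxorubicin, against 3500 ± 106 in untreated cells, and of 19512 ± 883 with nutlin-3, against 4418 ± 208 in DMSO (SD, n = 3 each). Doxorubicin arrays had a ratio of 3′ to 5′ ACTB signal of 3.12 ± 0.577, against 1.53 ± 0.0754 on untreated arrays, while it was 1.31 ± 0.0260 on nutlin-3 arrays, against 1.28 ± 0.0281 on DMSO arrays (SD, n = 3 each). The same ratio of GAPDH was 1.07 ± 0.116 with doxorubicin, against 1.02 ± 0.0356 in untreated cells, with overlapping ranges. That of dap, a bacterial control RNA added to the sample and not made by the cells, was 7.67 ± 3.85 with doxorubicin, against 2.84 ± 0.401 in untreated cells. The ACTB and dap ratios moved with doxorubicin, and their part in the results below was not tested. Of 9 osteoblast and mesenchymal markers, 8 had a probe set, with RUNX2, COL1A1, SPARC and VIM past the filter, and SP7, ALPL, IBSP and COL1A2 under it. The summed signal of 4 leukocyte markers was 509 to 796 with doxorubicin and 155 to 246 in untreated cells, and 319 to 421 with nutlin-3 and 126 to 191 in DMSO, with PTPRC and CD14 under the filter. LAPTM5 made up most of the treated sums, with 509 ± 141 with doxorubicin, against 85.1 ± 12.97 in untreated cells, and 258 ± 18.2 with nutlin-3, against 60.8 ± 9.91 in DMSO, while CD3E was called with neither agent (adjusted p = 0.244 and 0.843). That of 4 epithelial markers was 8869 to 10209 with doxorubicin and 9627 to 10863 in untreated cells, and 8769 to 9022 with nutlin-3 and 7694 to 8053 in DMSO. KRT8 made up most of that sum and rose by 0.27 with nutlin-3 (adjusted p = 0.0394). EPCAM fell by 0.31 with doxorubicin and by 0.68 with nutlin-3, and KRT14 fell by 1.66 with doxorubicin. The 2 controls differed here too. DMSO against untreated cells was -1.79 for KRT14 (adjusted p = 0.000197), -0.68 for EPCAM (adjusted p = 0.000701) and -0.30 for KRT8 (adjusted p = 0.0292). That of 3 endothelial markers was 229 to 313 with doxorubicin and 209.9 to 261 in untreated cells, and 142 to 184 with nutlin-3 and 121 to 165 in DMSO. The part of these markers in the results was not tested.

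With doxorubicin, the lead probe set (the brightest of its gene) rose for each of the 6 testable genes, from BTG1 at 5.04 times its untreated signal to TOB2 at 1.37 times, and 29.3% of all genes tested rose. With nutlin-3, the lead probe sets of GADD45A, BTG1, BTG3 and TOB1 rose, while those of GADD45B and TOB2 were not called. For comparison, 11.1% of all genes tested rose. The BTG3 probe sets disagreed, and 215425_at was lower with both agents. Over all 15 member probe sets, doxorubicin called 11 higher and 1 lower, against 47.4% of all probe sets called (23.7% higher and 23.7% lower). Nutlin-3 called 7 higher and 1 lower, against 17.9% of all probe sets (8.4% higher and 9.54% lower). The median change of the members was 0.87 with doxorubicin and 0.37 with nutlin-3, beside medians of 0.04 and -0.01 over all probe sets. Centring each array on its median instead moved the median of all probe sets with doxorubicin to -0.14. Of all doxorubicin calls, 34.1% were then higher, against 50.1% with the authors' scaling. Under that centring the members had 10 probe sets higher and 1 lower with doxorubicin, beside 46.8% of all probe sets called, and 5 higher and 1 lower with nutlin-3, beside 15.1%.

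**Figure D1:**
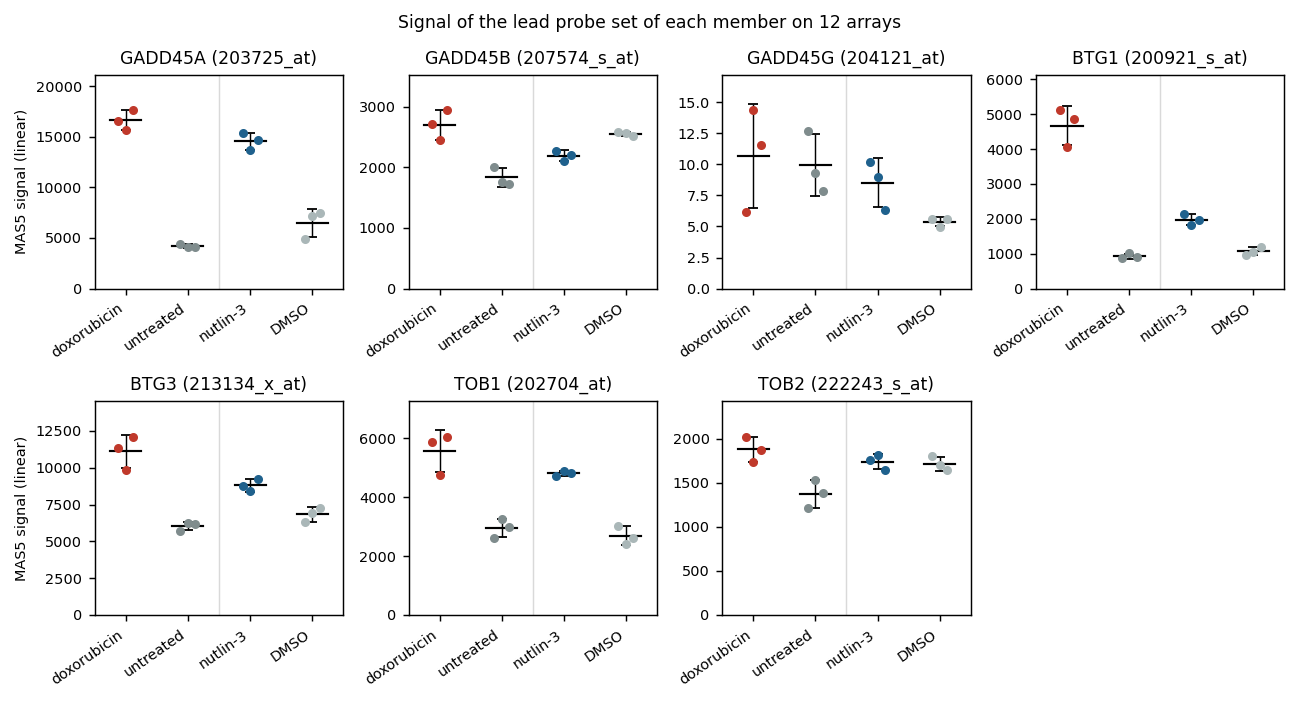
MAS5 signal (linear, from 0) of the lead probe set of each of the 7 measured genes in doxorubicin, untreated, nutlin-3 and DMSO arrays; points are arrays, bars the mean of 3 and whiskers the SD. Doxorubicin arrays lie above untreated arrays in every panel except GADD45G, which stays under a signal of 15 in all 12 arrays.

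GADD45A, which binds PCNA and the upstream kinase MAP3K4, was raised by both agents. Its only probe set, 203725_at, read 16583, 15704 and 17618 on the doxorubicin arrays, against 4411, 4133 and 4081 on the untreated arrays. It read 15359, 13647 and 14641 with nutlin-3, against 4915, 7129 and 7434 in DMSO. Neither agent's arrays overlapped with its control, and 1 DMSO array lay well under the other two. The change was 1.98 with doxorubicin (SE 0.12, adjusted p = 1.58e-09) and 1.18 with nutlin-3 (SE 0.12, adjusted p = 2.32e-06). The response to doxorubicin exceeded that to nutlin-3 by 0.79 (95% interval 0.43 to 1.15, adjusted p = 0.00203). The treated levels themselves were close, with doxorubicin 0.19 above nutlin-3 (95% interval -0.06 to 0.45, adjusted p = 0.195), while DMSO stood 0.60 above untreated cells (adjusted p = 0.0037). In order of level, doxorubicin and nutlin-3 were highest and not told apart, followed by DMSO and then untreated cells.

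GADD45B, known in other settings as an early target of NF-kB and TGF-beta signalling, was higher with doxorubicin than in untreated cells and was not raised by nutlin-3. Its lead probe set, 207574_s_at, read 2717, 2449.9 and 2943 with doxorubicin, against 2009, 1765 and 1732 in untreated cells. With nutlin-3 it read 2278, 2099.6 and 2197, against 2586, 2562 and 2515 in DMSO. All 3 nutlin-3 arrays lay under all 3 DMSO arrays, and all 3 doxorubicin arrays lay above the untreated ones. The change was 0.55 with doxorubicin (SE 0.09, adjusted p = 8.73e-05) and -0.22 with nutlin-3 (SE 0.09, adjusted p = 0.11), and the responses differed by 0.77 (SE 0.13, adjusted p = 0.000244). With array weights the nutlin-3 change was called (-0.23, adjusted p = 0.0261). DMSO stood 0.48 above untreated cells (adjusted p = 0.00255). Set against DMSO, a comparison added after the data were seen, the doxorubicin arrays were 0.08 higher (95% interval -0.11 to 0.27, adjusted p = 0.491), so the doxorubicin call depends on which control is used. Against untreated cells, nutlin-3 was 0.26 higher (adjusted p = 0.0374).

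The other 3 GADD45B probe sets split. The probe set 209304_x_at, of a class that can also bind related transcripts, read 1366, 1413 and 1586 with doxorubicin, against 801, 1033 and 680.4 in untreated cells, and 1126, 895 and 1168 with nutlin-3, against 1492, 1326 and 1224 in DMSO. Its order of groups matched that of the lead probe set, with changes of 0.80 with doxorubicin (adjusted p = 0.000196) and -0.34 with nutlin-3 (adjusted p = 0.115, but 0.0443 with array weights), and a difference of 1.14 (SE 0.20, adjusted p = 0.000421). Against DMSO, doxorubicin was 0.11 higher here (adjusted p = 0.533). The probe set 209305_s_at read 963, 729 and 1271 with doxorubicin and 999.8, 752 and 684 in untreated cells, groups that overlapped (0.26, adjusted p = 0.222). Its nutlin-3 change was -0.13 (adjusted p = 0.67), and it was 0.77 higher in DMSO than in untreated cells (adjusted p = 0.0067). Against DMSO its doxorubicin change was -0.51 (adjusted p = 0.0184), the opposite sign to its change from untreated cells. The dimmest, 213560_at, had means between 149.8 and 212 in the 4 groups and was called with neither agent.

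GADD45G, the member of the family best known from cytokine signalling and tissue differentiation, was dim. Its probe set 204121_at read 6.14, 14.4 and 11.6 with doxorubicin, against 12.7, 9.33 and 7.82 in untreated cells, and 10.2, 9.01 and 6.36 with nutlin-3, against 5.60, 4.97 and 5.59 in DMSO. These signals lay under the filter at 54.6, and detection calls were not used here, so they are given as values near the bottom of the scale. Tested without the filter, it changed by 0.03 with doxorubicin (adjusted p = 0.939) and by 0.19 with nutlin-3 (adjusted p = 0.757).

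BTG1, a BTG protein also known as a frequently mutated gene in lymphoid cancers, had the largest doxorubicin change among the lead probe sets. Its lead probe set, 200921_s_at, read 5114, 4056 and 4855 with doxorubicin, against 876, 1009.6 and 899 in untreated cells. With nutlin-3 it read 2138, 1818 and 1961, against 960.4, 1054 and 1188 in DMSO. Every treated array lay above every control array, and the doxorubicin arrays lay above the nutlin-3 arrays. The change was 2.31 with doxorubicin (SE 0.11, adjusted p = 9.94e-11) and 0.88 with nutlin-3 (SE 0.11, adjusted p = 2.31e-05), a difference of 1.43 (95% interval 1.10 to 1.76, adjusted p = 5.2e-06). The level with doxorubicin was also 1.23 above that with nutlin-3 (adjusted p = 1.78e-07), and DMSO and untreated cells were not told apart (0.20, adjusted p = 0.27).

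A second bright BTG1 probe set, 200920_s_at, gave nearly the same sizes, 2.30 with doxorubicin (SE 0.12, adjusted p = 2.09e-10) and 1.00 with nutlin-3 (SE 0.12, adjusted p = 1.1e-05). It read 2936, 2767 and 2932 with doxorubicin, against 596, 529 and 586 in untreated cells, and 1076, 862 and 814 with nutlin-3, against 395, 454 and 494 in DMSO. The responses differed by 1.30 (SE 0.17, adjusted p = 2.36e-05). The third, 1559975_at, stayed between 1.02 and 37.4 on the 12 arrays and was under the filter.

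BTG3, a BTG family member known to bind E2F1, did not give 1 answer across its 4 probe sets. The bright pair rose with both agents. The lead, 213134_x_at, is also of the class that can bind related transcripts. It read 11339.9, 9871 and 12123 with doxorubicin, against 5716, 6248 and 6191 in untreated cells. With nutlin-3 it read 8777, 8390.1 and 9261, against 6293, 6951 and 7244 in DMSO. Its change was 0.87 with doxorubicin (SE 0.09, adjusted p = 5.26e-07) and 0.37 with nutlin-3 (SE 0.09, adjusted p = 0.00713), with no overlap between either agent and its control. The second, 205548_s_at, averaged 7038 ± 599 with doxorubicin, against 3782 ± 373 in untreated cells, and 5986 ± 75.9 with nutlin-3 and 4591 ± 369 in DMSO (SD, n = 3 each). It changed by 0.89 (SE 0.09, adjusted p = 7.23e-07) and by 0.38 (SE 0.09, adjusted p = 0.00761). The responses differed by 0.50 for 213134_x_at (adjusted p = 0.0057) and by 0.51 for 205548_s_at (adjusted p = 0.00745). Under median centring the nutlin-3 calls of 213134_x_at (0.34, adjusted p = 0.0878) and 205548_s_at (0.36, adjusted p = 0.0819) were lost at nearly the same size. Their differences between the responses were lost there as well (0.35 and adjusted p = 0.174 for 213134_x_at, 0.36 and adjusted p = 0.179 for 205548_s_at), and 205548_s_at was not called with the treated arrays set directly against each other (0.23, adjusted p = 0.0501).

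The probe set 1556213_a_at rose far more with doxorubicin. It read 1765, 1188 and 1535 with doxorubicin, against 261, 259 and 319 in untreated cells, and 321, 283 and 367 with nutlin-3, against 272, 224 and 241 in DMSO. The 3 doxorubicin arrays stood clear of the other 9. The change was 2.34 with doxorubicin (SE 0.15, adjusted p = 3.99e-09) and 0.37 with nutlin-3 (SE 0.15, adjusted p = 0.113, but 0.0391 with array weights), a difference of 1.97 (SE 0.22, adjusted p = 5.85e-06), the largest among the members tested. The last probe set, 215425_at, went the other way. It read 237, 282 and 248 with doxorubicin, against 655, 578 and 571 in untreated cells, and 426, 365 and 326 with nutlin-3, against 581, 473 and 449 in DMSO. It fell by 1.18 with doxorubicin (SE 0.14, adjusted p = 2.6e-06), and by 0.41 with nutlin-3 at the edge of the threshold (adjusted p = 0.0498). That nutlin-3 call was lost on leaving out any 1 array other than doxorubicin replicate 2 or nutlin-3 replicate 1, with an adjusted p of 0.223 without DMSO replicate 1. With opposite signs among its probe sets, BTG3 had no single direction on this array, and which transcript each one reads was not analysed here.

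**Figure D2:**
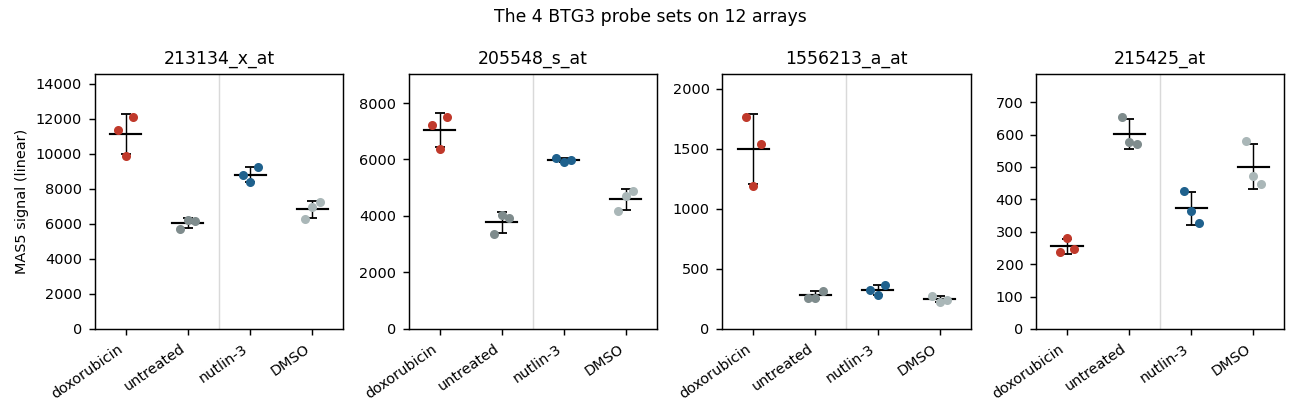
MAS5 signal (linear, from 0) of the 4 BTG3 probe sets, 213134_x_at, 205548_s_at, 1556213_a_at and 215425_at, in doxorubicin, untreated, nutlin-3 and DMSO arrays; points are arrays, bars the mean of 3 and whiskers the SD. The third probe set is high on doxorubicin arrays only, and the fourth is lowest there.

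TOB1, the TOB protein that joins the poly(A)-binding protein to the CCR4-NOT complex, rose with both agents, by like amounts on its lead probe set. That probe set, 202704_at, read 5871, 4754 and 6064 with doxorubicin, against 2626, 3244 and 2995 in untreated cells. With nutlin-3 it read 4736, 4897 and 4823, against 3038, 2426 and 2620.5 in DMSO. Neither agent overlapped with its control, while the doxorubicin and nutlin-3 arrays overlapped with each other. The change was 0.91 with doxorubicin (SE 0.11, adjusted p = 3.69e-06) and 0.84 with nutlin-3 (SE 0.11, adjusted p = 3.08e-05). The difference was 0.07 with a 95% interval of -0.26 to 0.39 (adjusted p = 0.79), an interval that still allows a difference in either direction. The dimmer 228834_at averaged 458 ± 62.2 with doxorubicin, against 201 ± 40.4 in untreated cells, and 279 ± 14.3 with nutlin-3 and 176 ± 23.1 in DMSO (SD, n = 3 each). It rose by 1.14 with doxorubicin (SE 0.16, adjusted p = 2.53e-05) and by 0.63 with nutlin-3 (SE 0.16, adjusted p = 0.0125), and the difference of 0.51 was not called (95% interval 0.02 to 1.00, adjusted p = 0.109), though it was without untreated replicate 3 (0.65, adjusted p = 0.0429). The doxorubicin level of 228834_at was 0.68 above the nutlin-3 level (adjusted p = 0.00274). Its nutlin-3 call was lost without DMSO replicate 2 (adjusted p = 0.065) or nutlin-3 replicate 3 (adjusted p = 0.0528).

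TOB2, the close relative of TOB1, had the smallest doxorubicin change among the lead probe sets. The probe set 222243_s_at read 2027, 1738 and 1875 with doxorubicin, against 1210, 1528 and 1388 in untreated cells, and 1766, 1814 and 1649.9 with nutlin-3, against 1804, 1701 and 1643 in DMSO. Doxorubicin and untreated arrays did not overlap, and nutlin-3 and DMSO arrays did. The change was 0.45 with doxorubicin (SE 0.10, adjusted p = 0.00134) and 0.02 with nutlin-3 (95% interval -0.19 to 0.23, adjusted p = 0.919), a difference of 0.43 (SE 0.14, adjusted p = 0.0297). That difference was lost without untreated replicate 1 (adjusted p = 0.0752), doxorubicin replicate 1 (0.0721), DMSO replicate 1 (0.0676), DMSO replicate 2 (0.0541) or nutlin-3 replicate 3 (0.0726). The doxorubicin call was lost under median centring (0.27, adjusted p = 0.0956) and against DMSO (0.13, adjusted p = 0.292), and DMSO stood 0.32 above untreated cells (adjusted p = 0.0423). The probe set 221496_s_at read 171, 226 and 185 with doxorubicin and 172, 149.8 and 125 in untreated cells, and was called with neither agent, at 0.35 (adjusted p = 0.187) and 0.11 (adjusted p = 0.788). With the controls exchanged, 221496_s_at was called, with doxorubicin 1.04 above DMSO (adjusted p = 6.0e-04) and 0.93 above nutlin-3 (adjusted p = 0.00167). The lead probe set had the same signs there but was called in neither, at 0.13 (adjusted p = 0.292) and 0.11 (adjusted p = 0.393). The third, 234720_s_at, was under the filter, with 68.5, 73.3 and 60.1 on the doxorubicin arrays and 48.0, 15.03 and 16.2 on the untreated ones. Tested without the filter it changed by 1.06 with doxorubicin (adjusted p = 0.0431) and by 0.90 with nutlin-3 (adjusted p = 0.178). BTG4, the other BTG family gene, was under the filter as well, with a mean signal of 64.7 with doxorubicin and 9.24 in untreated cells, and 24.7 with nutlin-3 and 3.92 in DMSO.

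**Figure D3:**
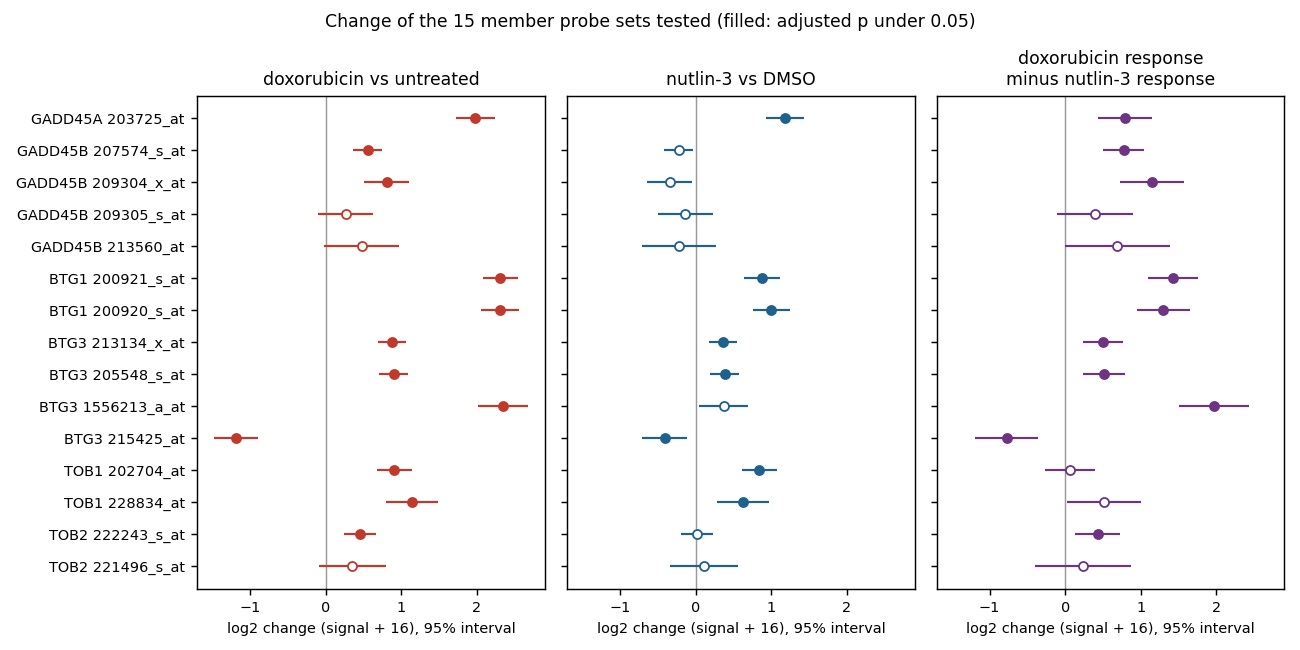
Change in log2(signal + 16) of the 15 tested member probe sets, in 3 panels for doxorubicin against untreated, nutlin-3 against DMSO, and the difference between the 2 responses; points are estimates, lines 95% intervals, and filled points are called. BTG1 and the BTG3 probe set 1556213_a_at stand farthest to the right of the difference panel, and TOB1 202704_at sits at 0.07.

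The difference between the responses was called for 10 of the 15 probe sets, 9 positive and 1 negative, against 30.4% of all probe sets (15.5% and 14.9%). The lead probe sets of GADD45A, GADD45B, BTG1, BTG3 and TOB2 were among them, against 20.3% of all genes tested with a positive difference called, and TOB1 was not. BTG3 and TOB2 lost this call under median centring. By comparison, CDKN1A, which encodes the p21 inhibitor of cyclin-dependent kinases, changed by 2.47 with doxorubicin and 2.30 with nutlin-3, a difference of 0.17 (SE 0.15, adjusted p = 0.437). MDM2 ran the other way, 1.42 with doxorubicin and 2.14 with nutlin-3 (difference -0.72, SE 0.10, adjusted p = 6.18e-05).

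The controls of the 2 responses also differed from each other for some members. DMSO against untreated cells called 6 of the 15 member probe sets, 5 higher and 1 lower, against 13.6% of all probe sets (5.65% higher and 7.94% lower). The calls higher in DMSO were GADD45A, 3 probe sets of GADD45B and TOB2 222243_s_at, and the call lower in DMSO was TOB2 221496_s_at (-0.69, adjusted p = 0.0391). The next comparisons were added after the data were seen. With DMSO as the doxorubicin control, 9 member probe sets were higher and 2 lower, against 51.9% of all probe sets called (27.8% higher and 24.1% lower). With untreated cells as the nutlin-3 control, 10 were higher and 2 lower, against 33.8% of all probe sets called (15.2% higher and 18.5% lower). The doxorubicin arrays set directly against the nutlin-3 arrays called 8 higher and 1 lower, against 50.0% of all probe sets (27.6% higher and 22.4% lower). Among the lead probe sets, the level with doxorubicin was above that with nutlin-3 for BTG1 (1.23), BTG3 (0.33) and GADD45B (0.30), and was not told apart for GADD45A, TOB1 or TOB2.

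**Figure D4:**
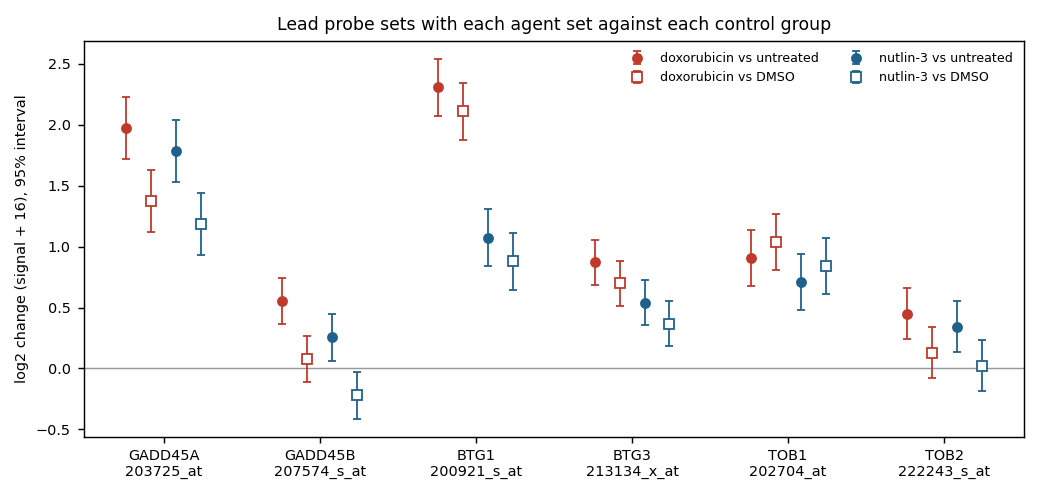
Change in log2(signal + 16) of the 6 tested lead probe sets for each agent against each control group; points are estimates, lines 95% intervals, filled circles use untreated cells as the control and open squares DMSO. GADD45B and TOB2 show a smaller doxorubicin change against DMSO (0.08 and 0.13) than against untreated cells (0.55 and 0.45), while BTG1 stays above 2 against either.

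Transcripts of the CCR4-NOT deadenylase, which BTG and TOB proteins recruit, mostly fell with doxorubicin on their lead probe sets. Here and in the lists below, any other probe sets of these genes are not described. Of 11 CCR4-NOT genes tested, doxorubicin called 1 higher and 7 lower, with a median change of -0.38, and nutlin-3 called 0 higher and 2 lower, with a median of -0.04. For lead probe sets of all genes, 29.3% were called higher and 24.9% lower with doxorubicin, and 11.1% higher and 12.5% lower with nutlin-3, and the medians over all genes were 0.08 and 0.00. CNOT7, a catalytic deadenylase subunit that BTG proteins bind, fell by 0.90 with doxorubicin (SE 0.10, adjusted p = 1.68e-06) and had a nutlin-3 change of 0.00. CNOT2, a subunit of the complex, fell by 0.89 with doxorubicin (SE 0.11). CNOT11 rose by 0.22 with doxorubicin at an adjusted p of 0.049, and this call was lost under most other settings. With nutlin-3, CNOT9 fell by 0.58 (SE 0.09) and CNOT10 fell by 0.42 (SE 0.12).

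Of 9 other poly(A) and partner genes tested, doxorubicin called 3 higher and 3 lower (median -0.13), beside 29.3% and 24.9% of all genes. Nutlin-3 called 3 higher and 0 lower (median 0.16), beside 11.1% and 12.5%. The cytoplasmic polyadenylation proteins CPEB2 and CPEB4 rose with doxorubicin by 1.89 (SE 0.13) and 1.54 (SE 0.14), and with nutlin-3 by 0.72 (SE 0.13) and 1.19 (SE 0.14). CPEB2 was also 0.63 higher in DMSO than in untreated cells (adjusted p = 0.00367). The poly(A) nuclease PARN fell by 0.64 with doxorubicin (SE 0.12), and PAN3, a subunit of another deadenylase, fell by 0.47 (SE 0.08). CCND1, the cyclin whose expression BTG and TOB proteins are known to lower in other cells, rose with both agents, by 0.78 with doxorubicin (SE 0.08) and by 0.90 with nutlin-3 (SE 0.08).

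Among 12 tested partners of GADD45 proteins, doxorubicin called 4 higher and 4 lower (median 0.01), beside 29.3% and 24.9% of all genes. Nutlin-3 called 2 higher and 4 lower (median -0.11), beside 11.1% and 12.5%. PCNA, the replication clamp, rose by 0.68 with doxorubicin (SE 0.08, adjusted p = 5.28e-06), and its nutlin-3 change was 0.12 (adjusted p = 0.389). The kinase MAPK9 averaged 2807 ± 185 with doxorubicin, against 1603 ± 90.6 in untreated cells, and 1418 ± 89.9 with nutlin-3 and 2026 ± 72.3 in DMSO (SD, n = 3 each), so it rose by 0.80 with doxorubicin and fell by 0.51 with nutlin-3, while DMSO stood 0.34 above untreated cells (adjusted p = 0.0187). CDK1, the mitotic kinase that GADD45 proteins bind, likewise rose by 0.32 with doxorubicin (adjusted p = 0.0234) and fell by 0.87 with nutlin-3 (adjusted p = 1.93e-05), a difference of 1.18 (SE 0.15, adjusted p = 2.41e-05). Its cyclin CCNB1 fell with both, by 0.90 and by 0.54, as did the kinase AURKA, by 0.75 and by 0.59, which was -0.37 in DMSO relative to untreated cells (adjusted p = 0.00361). MAP2K4, which activates JNK kinases, rose by 0.40 with nutlin-3 (adjusted p = 0.0188). Its doxorubicin change was -0.28 (adjusted p = 0.0506), and the responses differed by -0.67 (adjusted p = 0.00377). MAP2K6, which activates p38 kinases, fell by 0.99 with doxorubicin (adjusted p = 0.00629). Its nutlin-3 change was -0.79 (adjusted p = 0.0529), and the responses were not told apart (difference -0.20, adjusted p = 0.74).

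Of 12 transcription regulators known for these genes other than p53, doxorubicin called 3 higher and 4 lower (median -0.16). Nutlin-3 called 2 higher and 1 lower (median 0.04). For all genes the shares were 29.3% higher and 24.9% lower with doxorubicin, and 11.1% and 12.5% with nutlin-3. EGR1, an early growth response factor, rose by 2.42 with doxorubicin (SE 0.25) and by 1.71 with nutlin-3 (SE 0.25), and NFKB1 rose by 0.77 and by 0.42 (SE 0.13 each). ATF4, the stress-response factor, averaged 8947 ± 1491 with doxorubicin, against 16985 ± 2168 in untreated cells (SD, n = 3 each), and fell by 0.93. BRCA1 fell by 0.63 with doxorubicin and by 1.18 with nutlin-3 (SE 0.08 each). Under median centring the doxorubicin counts were 0 higher and 7 lower for CCR4-NOT genes, 3 and 4 for the other poly(A) genes, 3 and 5 for the GADD45 partners and 2 and 6 for the regulators. Over all probe sets, 34.1% of doxorubicin calls were higher under that centring, against 50.1% with the authors' scaling. The list counts thus moved in the same direction as the whole array, and any shift of the lists beyond that was not tested.

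**Figure D5:**
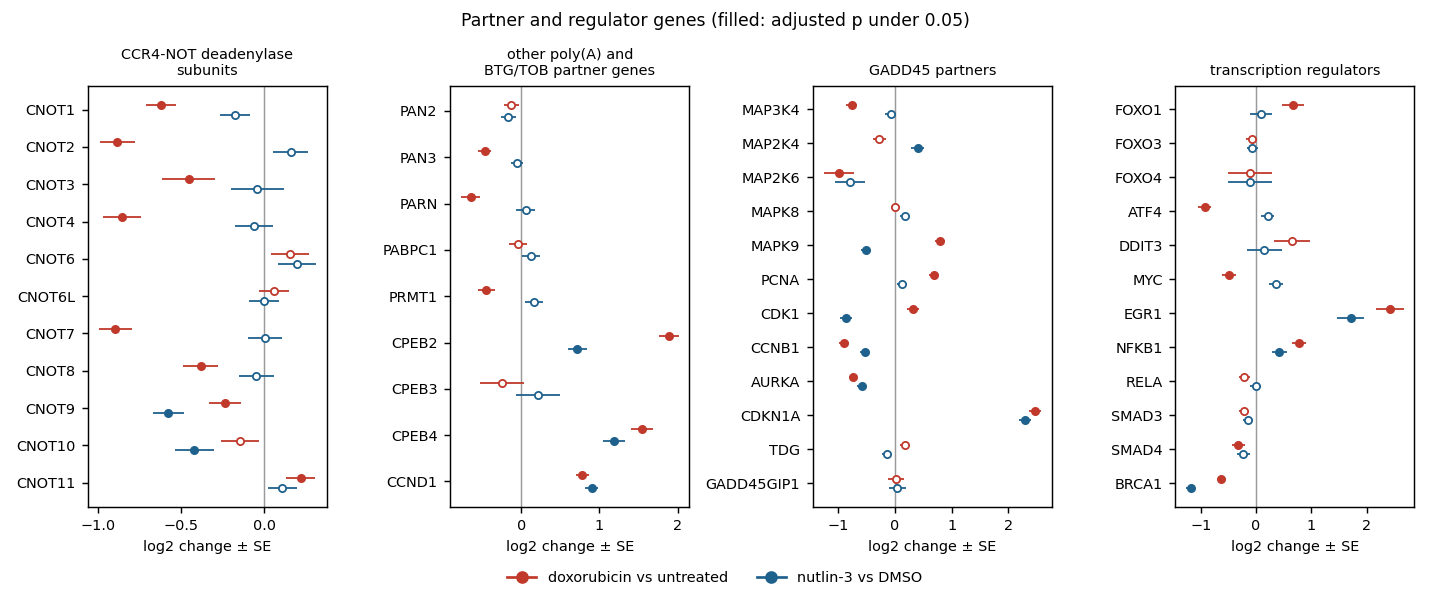
Change in log2(signal + 16) of each tested gene of the 4 lists with doxorubicin against untreated and with nutlin-3 against DMSO; points are lead probe sets, lines ± SE, and filled points are called. Most CCR4-NOT subunits lie left of 0 with doxorubicin, and MAPK9 and CDK1 lie on opposite sides of 0 for the 2 agents.

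For each member, the gene most like it over the 12 arrays was found as the smallest root mean square difference in log2 values, each centred on its own mean. This was NEFL for GADD45A (0.139), RBM5 for GADD45B (0.0774), TENT5C for BTG1 (0.137), ZNHIT1 for BTG3 (0.0728), SRSF8 for TOB1 (0.101) and PRNP for TOB2 (0.0582). TENT5C, a non-canonical poly(A) polymerase, changed by 2.16 with doxorubicin and by 0.80 with nutlin-3. RBM5, an RNA-binding protein, changed by 0.54 and by -0.22. The arrays share their 4 groups, so likeness over them describes the pattern across groups and carries no test.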

How the data were processed

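Gene expression was measured on 12 arrays in 4 groups of 3, assigned from the sample titles. The deposited values are linear signal intensity, 1 per probe set on each array, which the authors made with MAS5, per the submitters' processing notes; its version and settings are not given in the sources used here. Array medians lay between 79.6 and 113.6, and the number of arrays limits the precision.

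The authors' scaling was kept. Tests used log2(value + 16), a scale that understates the change of dim genes. The 62 control probe sets and probe sets with a mean under the 40th percentile (54.6) were left out. In the platform annotation 41097 probe sets had 1 symbol, 1801 had several and 11777 were not listed. The remaining 32768 probe sets were fitted in limma 3.58.1 (R 4.3.3) using lmFit and trended eBayes, as 4 group means over all 12 arrays. Each agent was contrasted with its own control, the responses to the agents with each other, and DMSO with untreated cells. Scripts were tested on simulated data.

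All members and their probe sets are named, with MDM2, CDKN1A and BTG4, and up to 2 called rises and 2 called falls of largest size per list and agent. Some further values were chosen after they were seen. With nutlin-3 these were CPEB2, MAPK9, CCNB1 and MAP2K6. With doxorubicin they were AURKA, CDK1, CCND1 and MAP2K4, and PCNA was also given. PABPC4, MAP2K3, MAP2K7 and MAPK14 had no probe set paired with them alone. Members and lists were chosen with earlier results of these data known.

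Alternatives covered scaling, pseudocounts, filters, 1 probe set per gene, trend, array weights, fits of the compared arrays, a replicate block, stricter thresholds and each array left out. A further 3, which exchange the controls or compare the treated arrays directly, were added after the data were seen.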

Additional observations from a re-analysis of the deposited data

Results flagged for a closer look

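The response to doxorubicin and the response to nutlin-3 differed, by limma's contrast of the responses, for 10 member probe sets, each value being the log2 change with doxorubicin minus that with nutlin-3. The difference was 0.79 for GADD45A 203725_at, and 0.77 for GADD45B 207574_s_at and 1.14 for GADD45B 209304_x_at. It was 1.43 for BTG1 200921_s_at and 1.30 for BTG1 200920_s_at. For BTG3 it was 0.50 for 213134_x_at, 0.51 for 205548_s_at, 1.97 for 1556213_a_at and -0.77 for 215425_at. It was 0.43 for TOB2 222243_s_at. The untreated and DMSO arrays also differed for GADD45A, both of these GADD45B probe sets and TOB2 222243_s_at. By construction, each difference is that between the treated levels plus the change of DMSO from untreated cells. In that order, these parts were 0.19 and 0.60 for GADD45A, and 0.11 and 0.32 for TOB2 222243_s_at. They were 0.30 and 0.48 for GADD45B 207574_s_at, and 0.45 and 0.69 for GADD45B 209304_x_at. Why the controls differed was not tested.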

How the results depend on the processing

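Member counts were 12 of 15 called with doxorubicin, 8 with nutlin-3, 10 for the difference and 6 for DMSO against untreated. With 1 probe set per gene they were 6, 4, 5 and 3, with fewer probe sets tested, and with a change of at least 2-fold they were 6, 2, 4 and 0. Leaving out each array in turn gave 12 to 13 with doxorubicin, 6 to 8 with nutlin-3, 9 to 12 for the difference and 4 to 7 for DMSO against untreated. For a check of pairing, each probe set was taken as its deviation from its group mean. Across these deviations, same-numbered doxorubicin and untreated arrays correlated at -0.033, -0.067 and -0.045, and nutlin-3 and DMSO arrays at 0.199, 0.0090 and 0.102. Differently numbered arrays ranged from -0.110 to 0.158 for doxorubicin and untreated, and from -0.157 to 0.068 for nutlin-3 and DMSO. Whether replicate numbers pair the samples was not settled by these values. With a replicate block the counts were 12, 8, 10 and 7, beside 49.1%, 19.9%, 32.7% and 15.9% of all probe sets. Signs turned with a call on either side when the control was exchanged: GADD45B 209305_s_at with doxorubicin was -0.51 against DMSO, and with nutlin-3 against untreated cells GADD45B 207574_s_at was 0.26, GADD45B 209305_s_at 0.64 and TOB2 221496_s_at -0.58. Of 1490 values of member probe sets under other settings, 1372 kept direction and side of the threshold, 83 lost the call, 20 gained it and 15 turned sign. Of those 15, 11 were called on neither side: with nutlin-3 against untreated cells GADD45B 209304_x_at was 0.35 and 213560_at 0.06, the GADD45B 209305_s_at difference was -0.38 with the treated arrays set directly, and the others, for TOB1 202704_at and both TOB2 probe sets, lay between -0.09 and 0.00. Median centring gave 11, 6, 7 and 5 member calls, beside 46.8%, 15.1%, 28.3% and 13.8% of all probe sets. It moved the median of all probe sets from 0.04 to -0.14 with doxorubicin, from 0.04 to -0.11 for the difference and from -0.02 to 0.11 for DMSO against untreated. The share of calls that were higher was 34.9% against 51.0% for the difference and 64.2% against 41.5% for DMSO against untreated. The higher level of TOB2 222243_s_at in DMSO than in untreated cells was lost without untreated replicate 1 or 3, without any 1 DMSO array, or without nutlin-3 replicate 2 or 3 (adjusted p from 0.0504 to 0.18), and under quantile normalization (0.0565), with no filter (0.0576), with no trend (0.0884) and with only the 6 arrays compared (0.055). The lower level of TOB2 221496_s_at there was lost without untreated replicate 1 or 2, DMSO replicate 1 or 3, or nutlin-3 replicate 2 (adjusted p from 0.0501 to 0.174), and under quantile normalization (0.0731), median centring (0.0759), no filter (0.0875) or only the 6 arrays compared (0.0591). GADD45B 213560_at was called with doxorubicin without untreated replicate 3 or doxorubicin replicate 3, and GADD45B 209305_s_at without doxorubicin replicate 2. Over the whole array, 15541, 5879, 9967 and 4453 probe sets were called in the same order of contrasts. There were 7668, 3628, 5436 and 1959 with 1 probe set per gene and 4987, 1199, 4026 and 719 with at least 2-fold. An adjusted p under 0.01 gave 3596 with nutlin-3, 6296 for the difference and 1869 for DMSO against untreated. Nutlin-3 against untreated cells gave 11065, and doxorubicin directly against nutlin-3 gave 16374. DMSO against untreated gave 2718 without untreated replicate 1, 2708 without DMSO replicate 2 and 2471 without DMSO replicate 3. The cause of these changes was not tested. Without detection calls, dim probe sets such as GADD45G cannot be called present or absent.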
